A study of Mus musculus with 43 samples.

Results

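The effect of Apc loss in the absence of drug was examined in the vehicle-treated colon organoids, which account for 6 of the 43 libraries of the series. They were chosen by their labels alone, namely the organoid libraries labelled with DMSO, 3 of them Apc wild-type (colonoid lines M41, M40 and M1) and 3 of them Apc deficient (tumoroid lines F11, M3 and M14). Organoids are epithelial structures grown in a gel of basement membrane matrix from crypts of the colon. Both groups came from adult mice carrying Vil-cre/ERT2, a tamoxifen-inducible Cre recombinase driven by the villin promoter, and both groups of mice received tamoxifen in vivo. The colonoid donors were Apc wt/wt and the tumoroid donors Apc flox/flox, so only in the latter could the recombinase remove the floxed part of Apc in the intestinal epithelium. Each line came from 1 mouse, hence the 3 lines per genotype are separate animals, and no mouse supplied both genotypes. Line F11 is from a female mouse and the other 5 from males, so sex differs within the tumoroids. All lines were cultured for 6 days in vehicle in a medium that contains R-spondin 1 and Wnt3a-conditioned medium, so the Wnt pathway was stimulated from outside in the colonoids as well.

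Apc encodes the scaffold of the complex that marks β-catenin for destruction. When it is lost, β-catenin accumulates without a Wnt signal, enters the nucleus and activates, together with TCF/LEF factors, a set of target genes, several of which encode inhibitors of the pathway itself. In the colon, Wnt signaling is strongest at the crypt base, where stem cells divide, and fades toward the surface, where absorptive colonocytes, mucus-producing goblet cells and hormone-producing enteroendocrine cells mature. Loss of Apc is the usual first step of colorectal adenomas.

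Values are given in CP20M, the count of a gene scaled to 20000000 counted reads per library and not divided by transcript length, so that 20 CP20M is 1 CPM. The 6 libraries held between 6590317 and 20153577 reads on genes, where 1 read was worth 0.99 to 3.03 CP20M. The shallowest was colonoid line M41, which nevertheless had the most genes above 0 (27955 against 23426 to 24907 in the others) and stood apart in Gm10800, a predicted gene (21951 CP20M against 11 to 566). Marker lists of other cell types were low. The 12 fibroblast genes summed to 113 to 213 CP20M in 5 lines and to 868 in F11, of which Fbln1 made up 849, and Col1a2, Dcn and Lum reached 4 at most. The 12 immune genes summed to 472 to 577, with Csf1r at 352 to 463 as the 1 member above the filter and Ptprc, which defines leukocytes, at 7 at most. The 7 smooth muscle genes summed to 158 to 277 and the 11 genes of endothelium, nerve and glia to 60 to 184, whereas the 11 general epithelial genes summed to between 136705 and 302274. Xist was at 22231 CP20M in F11 and at 7 or less elsewhere, and 4 Y-linked genes were at 0 in F11 alone, the line labelled female. The protocol in the labels and the methods name different library kits, and whether reads were counted by strand is not given, so reads of overlapping genes on opposite strands cannot be told apart.

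Differences were tested with limma on log2(CP20M + 20) and called at an adjusted p under 0.05. Of 52636 genes, 10625 reached 200 CP20M in at least 2 of the 6 libraries and were tested. A gene could pass this filter through the lines of 1 genotype alone. Such a gene could hardly be called in the other direction. In tumoroids, 596 genes were called higher (5.61% of those tested) and 391 lower (3.68%), 987 in all (9.29%). At a stricter threshold, where the adjusted p had to be under 0.01 and the change at least 1 on the log2 scale in either direction, there were 30 higher (0.282%) and 54 lower (0.508%). The highest rises were smaller than the deepest falls, as the plot of fold change against level shows.

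**Figure D1:**
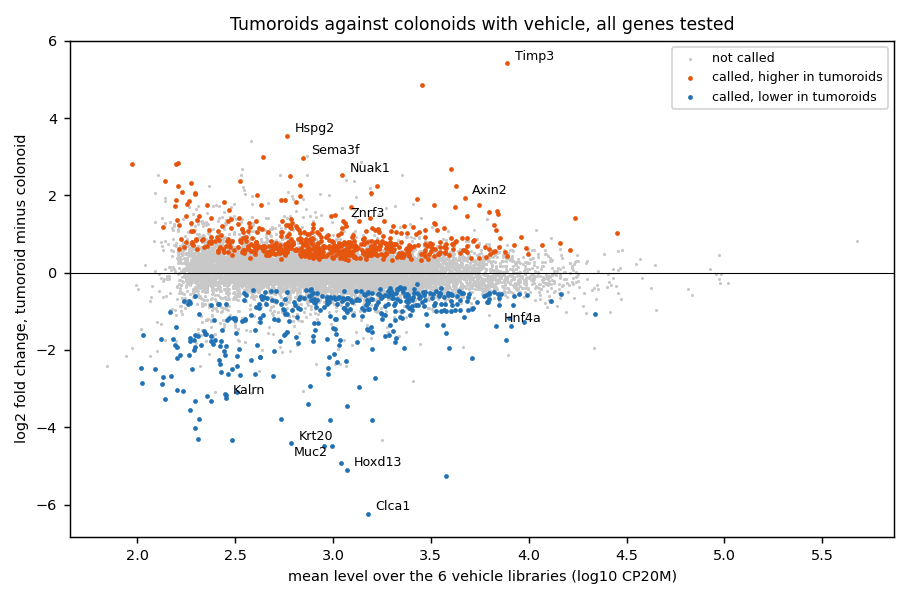
Log2 fold change of tumoroids against colonoids with vehicle (vertical axis) plotted against the mean level over the 6 libraries (log10 CP20M) for the 10625 genes tested, with the 596 genes called higher in orange and the 391 called lower in blue. Falls reach −6.24 (Clca1) and rises 5.42 (Timp3).

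These counts depend on which libraries set the spread. The fit also held the regorafenib libraries of the same lines, 17 libraries in all, and left out 1 library of 512591 reads that is not among the 6 compared. With that library, 171 genes were called (79 higher and 92 lower, all among the 987). With the 6 vehicle libraries alone limma called 1, Serpinb1a, an inhibitor of neutrophil proteases that was named after its values were seen (log2 fold change −2.31, adjusted p = 0.047), while 1997 genes had an unadjusted p under 0.05. Without colonoid line M41, M40 or M1 the count was 206, 75 or 1172, and without tumoroid line F11, M3 or M14 it was 616, 54 or 591. Rescaling with TMM factors, which correct for differences in composition, gave 457 higher and 468 lower. Without M41, M40 or M3 falls also outnumbered rises (98 higher and 108 lower, 36 and 39, and 23 and 31). The count tests edgeR (418 higher and 455 lower) and DESeq2 (776 and 824) gave more falls as well. The excess of rises over falls was thus not found in every setting, and its cause was not tested. Unless edgeR or DESeq2 is named, the fold changes below are on the log2(CP20M + 20) scale, which understates the change of low genes.

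Apc itself was not lower in tumoroids. Its level was 3715, 4189 and 1990 CP20M in colonoids M41, M40 and M1, and 4932, 4972 and 5211 in tumoroids F11, M3 and M14. The tumoroid lines lay above all colonoid lines, but the log2 fold change of 0.68 ± 0.37 (SE) did not pass the test (adjusted p = 0.25). A value summed over the whole gene does not resolve the floxed part, so it is no check of the deletion. Of the other components of the destruction complex and the nuclear partners of β-catenin, 19 were tested and 2 were called, a share near the 9.29% of all genes tested. Tcf7l2, the TCF factor of the adult intestine, fell (902, 1448 and 1249 against 885, 688 and 673 CP20M, log2 fold change −0.65, adjusted p = 0.035), and Tle3, a co-repressor that binds TCF factors, rose (0.48, adjusted p = 0.047). Both calls were lost when all 18 libraries set the spread (adjusted p = 0.49 and 0.30), and that of Tle3 also with the line as a block (0.054). Ctnnb1, which encodes β-catenin, was at 28755, 32140 and 33575 CP20M in colonoids and at 24532, 23236 and 25992 in tumoroids, where the groups did not overlap but the difference was not called (adjusted p = 0.072).

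Among 18 tested Wnt targets, 6 rose in tumoroids and 1 fell, against 5.61% and 3.68% of all genes tested, and their median log2 fold change was 0.58 against 0.05 over all genes. Of the 6 genes that rose, 3 encode negative regulators of the pathway. Axin2 (chromosome 11, 108920349 to 108950783, GRCm38, plus strand), a scaffold of the destruction complex that is itself induced by β-catenin, was at 1366, 2134 and 2366 CP20M in colonoids and at 5552, 9312 and 7610 in tumoroids. Every tumoroid line was above every colonoid line (log2 fold change 1.93 ± 0.32 SE, adjusted p = 0.0059). Gm11670 lies on the opposite strand of Axin2 and stayed at 0.11 to 0.12 of its level in all 6 lines. Znrf3, a membrane ubiquitin ligase that removes Frizzled receptors, was at 459, 642 and 808 CP20M in colonoids and 1636, 1799 and 1390 in tumoroids (1.34 ± 0.20, adjusted p = 0.0036). Its partner Rnf43, which has the same role, was at 2395, 4503 and 4544 in colonoids and at 6453, 7775 and 5411 in tumoroids, a smaller rise that lost its call with all 18 libraries (0.82, adjusted p = 0.049 and then 0.26).

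The other members that rose encode transcription factors. Sp5, a zinc finger factor of the Sp family, was at 76, 105 and 65 CP20M in colonoids and at 324 and 344 in tumoroids F11 and M14, with M3 lower but still above every colonoid line (a log2 change of 1.47 ± 0.42 SE, adjusted p = 0.042). Sp5 passed the filter through F11 and M14 alone. Tcf7, which encodes TCF1, was at 434, 461 and 497 in colonoids and at 771, 1060 and 838 in tumoroids (0.90 ± 0.20, adjusted p = 0.017). In both genes the 2 groups of lines did not overlap. Zfp703 rose as well (0.79, adjusted p = 0.040), although its lowest tumoroid line (3171) was just under its highest colonoid line (3216). These 3 calls were lost with all 18 libraries (adjusted p = 0.091, 0.33 and 0.14), which left Axin2 and Znrf3. Without M41, M40 or M3, 2 Wnt targets were called higher, without M14 3 and without F11 4.

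For Axin2 and Sp5, the strongest responders that have a promoter entry, the 250 bases before the RefSeq start site are shown (GRCm38.p6, 5′ to 3′ on the strand of the gene), Axin2 at chr11:108920099-108920348 and Sp5 at chr2:70474673-70474922, both on the plus strand. Capitals mark the letters CTTTGAA or CTTTGAT, the core bound by TCF/LEF factors, searched on both strands.
Axin2: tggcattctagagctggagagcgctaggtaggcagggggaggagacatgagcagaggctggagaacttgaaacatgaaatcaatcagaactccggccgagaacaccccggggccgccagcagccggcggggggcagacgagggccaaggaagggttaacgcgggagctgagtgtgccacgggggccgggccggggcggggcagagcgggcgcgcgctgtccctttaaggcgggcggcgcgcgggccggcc
Sp5: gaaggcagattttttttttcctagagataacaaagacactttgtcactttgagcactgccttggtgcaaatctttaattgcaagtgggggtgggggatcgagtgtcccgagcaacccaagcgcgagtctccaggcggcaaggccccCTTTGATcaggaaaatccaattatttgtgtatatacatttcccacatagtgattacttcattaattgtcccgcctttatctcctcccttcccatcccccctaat
The Sp5 window holds 1 match, which begins 104 bases before the start site, and the Axin2 window holds none. Of the 18 Wnt targets with an entry, 3 held a match in this window (16.7%), compared with 8.6% of all 27025 genes with an entry and 6.1% of the 7874 tested genes with one. The match is a description of the letters and not a site of binding.

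Other textbook targets were not called. Lgr5, the receptor for R-spondin that marks intestinal stem cells, was at 146, 500 and 561 CP20M in colonoids and at 2720, 483 and 796 in tumoroids, so that the high value belonged to F11 alone (adjusted p = 0.18). Myc was at 5946, 5482 and 7785 in colonoids and at 7868, 10974 and 10116 in tumoroids, without overlap and without passing the test (adjusted p = 0.092). Cd44 was at 7678, 9470 and 9468 against 8390, 9272 and 9377, and Ephb2 at 4340, 5724 and 5697 against 7109, 4749 and 5290; the groups overlapped in both. Several other targets were too low to test. Notum, which inactivates Wnt ligands, was at 25, 10 and 30 CP20M in colonoids and at 107, 141 and 47 in tumoroids, and Nkd1, Wif1 and Lef1 were at 22 or less in every line. The target that fell was Cdx1, an intestinal homeobox gene that is both a Wnt target and a factor of differentiation, at 2207, 3262 and 1484 CP20M in colonoids and at 909, 86 and 221 in tumoroids (a log2 change of −2.95, adjusted p = 0.031, and 0.085 with all 18 libraries).

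**Figure D2:**
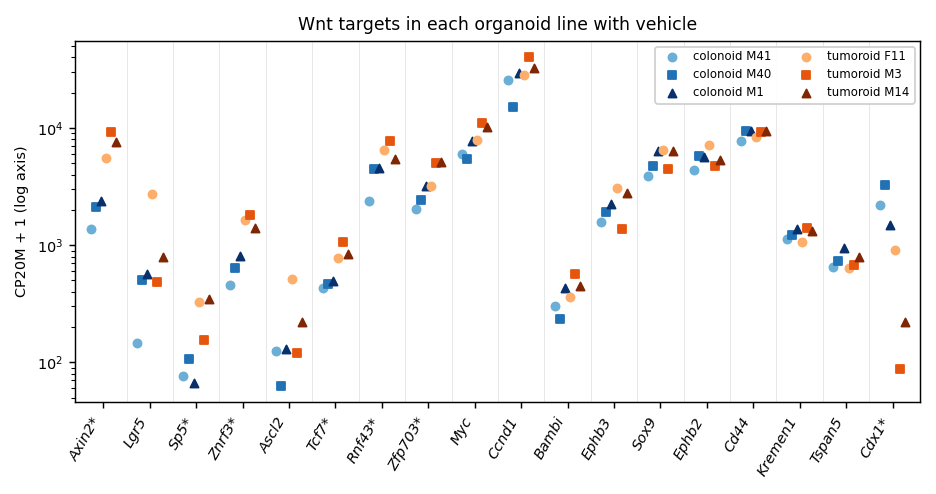
CP20M + 1 (log axis) of the 18 tested Wnt targets in each of the 3 colonoid lines (blue) and 3 tumoroid lines (orange to brown), with an asterisk on the genes that passed the test. Axin2, Znrf3, Sp5, Tcf7 and Rnf43 separate the groups upward and Cdx1 downward, whereas Lgr5 is high in F11 only.

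Of the Wnt receptors and genes that handle Wnt ligands, 9 of 23 were tested. Of these, 2 were called in opposite directions, against 9.29% of all genes tested. Fzd6 rose (768, 752 and 915 against 1307, 1680 and 1173 CP20M, log2 fold change 0.75, adjusted p = 0.0093) and Fzd5, another Wnt receptor, fell (2286, 2448 and 2599 against 1701, 1149 and 1844, −0.66, adjusted p = 0.034). Neither call held with all 18 libraries (adjusted p = 0.17 and 0.089). The Wnt ligands Wnt3, Wnt4, Wnt5a and Wnt11 and the R-spondins Rspo1 and Rspo3 were at 16 CP20M or less in every line.

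Of 17 tested stem cell genes, 4 rose and 1 fell, against 5.61% and 3.68% of all genes tested. The 4 included Axin2 and Rnf43 above. Tiam1, an activator of the small GTPase Rac, was at 771, 1572 and 1899 CP20M in colonoids and at 4720, 2489 and 2420 in tumoroids (adjusted p = 0.042). Cdca7, a MYC-responsive nuclear protein, was at 510, 692 and 864 against 3686, 1417 and 976 (adjusted p = 0.048). Both missed the threshold with all 18 libraries (adjusted p = 0.11 and 0.14). Plce1, a phospholipase C, went the other way, at 1585, 2111 and 3023 in colonoids and 758, 660 and 901 in tumoroids (a log2 change of −1.47, adjusted p = 0.0056). Line F11 stood apart within the tumoroids, with Smoc2 at 2012 CP20M against 72 and 160 in M3 and M14, and Ascl2 at 513 against 120 and 220. Without F11, M41, M40 or M3, 1 of the stem cell genes was called higher, without M14 2, and Plce1 lost its call without M3.

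Goblet cell genes were lower in tumoroids. Of 15 tested, 10 fell and none rose, against 3.68% and 5.61% of all genes tested. Their median log2 fold change was −2.48, against 0.05 over all genes. Members such as Clca1, Muc2, Tff3, Fcgbp, Agr2, Spink4 and Retnlb passed the filter through colonoid lines alone. They could hardly enter the count or the median as rises. The summed level of the 24 goblet genes was 20800, 31522 and 7821 CP20M in colonoids M41, M40 and M1 and 4698, 3636 and 3732 in tumoroids F11, M3 and M14. In bulk RNA, fewer goblet cells and less goblet RNA per cell cannot be told apart.

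Clca1 (chromosome 3, 145003817 to 145032776, minus strand), a protein secreted with mucus, was at 3366, 5060 and 651 CP20M in colonoids and at 15, 13 and 3 in tumoroids, where those values stand for 11, 13 and 2 reads. Its log2 fold change was −6.24 ± 0.66 (SE, adjusted p = 0.00039). Muc2 (chromosome 7, 141690340 to 141754693, plus strand), the gel-forming mucin of the colon, was at 2267, 4154 and 93 in colonoids and at 41, 1 and 10 in tumoroids (−4.93 ± 0.97, adjusted p = 0.011). The groups did not overlap in either gene, but M1 was the lowest colonoid line in both. It was also the lowest in Tff3, a trefoil peptide secreted with mucus, which was at 2771, 2866 and 138 in colonoids and at 144, 2 and 11 in tumoroids, with M1 below F11 (adjusted p = 0.017). Fcgbp, a mucus protein that binds IgG Fc, was at 1333, 3536 and 429 against 81, 19 and 30, and Agr2, the protein disulfide isomerase needed to fold mucins, at 2747, 2550 and 245 against 121, 27 and 84.

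Sytl2, which acts in the transport of secretory vesicles, fell by 2.48 on the log2 scale with M1 at the level of the other colonoids (1460, 2224 and 1173 against 320, 173 and 330 CP20M, adjusted p = 0.0022). Creb3l1, Spink4, Retnlb and Gcnt3 completed the 10. Genes without a call included Foxa3, a goblet cell transcription factor, at 987, 1708 and 858 in colonoids and 1618, 592 and 875 in tumoroids, and Galnt12, an enzyme of mucin glycosylation. Ang4, Bcas1 and Ern2 were lower but also without a call (log2 fold change −1.95, −1.83 and −2.10, adjusted p = 0.17, 0.076 and 0.084). Atoh1, the factor that commits cells to the secretory lineage, was under the filter (43, 118 and 6 against 56, 0 and 2 CP20M), as was Spdef (113, 293 and 8 against 8, 2 and 4). With all 18 libraries 5 of the goblet genes were called, namely Clca1, Muc2, Fcgbp, Agr2 and Sytl2. Without M1 there were 12, without F11 8, and without M14, M41, M40 or M3 there were 5, 4, 3 or 2.

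Absorptive colonocyte genes were lower too. Of 25 tested, 9 fell and none rose, against 3.68% and 5.61% of all genes tested. Their median log2 fold change was −1.38, against 0.05 over all genes. Krt20, Muc3, Hnf4g and Hsd17b2 passed the filter through colonoid lines alone and could hardly enter the count as rises. The summed level of the 40 genes of the list was 140601, 142992 and 144581 CP20M in colonoids and 90220, 97060 and 96880 in tumoroids. Abundant genes without a call, such as Car2, carry much of these sums. Among the 9 genes that fell, M1 was the lowest colonoid line in all but Slc9a2. Krt20, the keratin of mature surface cells, was at 881, 1962 and 655 in colonoids and at 7, 5 and 166 in tumoroids (a log2 change of −4.41 ± 1.11 SE, adjusted p = 0.028, and 0.054 with all 18 libraries). Muc3, a membrane mucin of the brush border, was at 398, 1017 and 387 against 15, 4 and 6 (−4.33 ± 0.55, adjusted p = 0.0015). Lypd8, which keeps flagellated bacteria away from the epithelium, was at 2538, 4449 and 1788 against 360, 47 and 266 (−3.82, adjusted p = 0.040, and 0.080 with all 18 libraries). The groups did not overlap in any of the 3.

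Regulators were among the genes that fell. Hnf4a, a nuclear receptor that drives enterocyte differentiation, was at 8413, 13112 and 7476 CP20M in colonoids and at 6799, 2231 and 3047 in tumoroids (a log2 change of −1.38, adjusted p = 0.044). Its paralog Hnf4g was at 304, 455 and 214 against 105, 50 and 57 (−1.91, adjusted p = 0.023). Mxd1, which competes with MYC for their shared partner MAX, was at 6889, 12965 and 5529 against 1098, 1588 and 2793 (−2.21, adjusted p = 0.0059). Cdhr5 of the microvillus, the sodium-proton exchanger Slc9a2 and the steroid dehydrogenase Hsd17b2 were the other members that fell. Not every absorptive gene was lower, since Car2 was at 21213, 14607 and 25956 against 22716, 30131 and 31727, and Car4 and Aqp8 of surface colonocytes were at 19 CP20M or less in every line. Muc3, Mxd1, Slc9a2 and Hsd17b2 kept their calls with all 18 libraries. Without F11 there were 10 calls, without M1 9, and without M14, M41, M40 or M3 there were 5, 4, 3 or 1.

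Enteroendocrine genes were low in tumoroids and in 1 colonoid line. The 22 genes summed to 2512 and 2249 CP20M in M41 and M40, but to 118 in M1, and to 139, 19 and 80 in tumoroids. Only 5 were tested, of which limma called 1, lower, against 3.68% of all genes tested. Chgb, a granin of hormone granules, was at 562, 429 and 20 in colonoids and at 12, 1 and 7 in tumoroids (a log2 change of −3.06, adjusted p = 0.042, and 0.11 with all 18 libraries). In Chga, Pyy, Tph1 and Insm1 M1 was again the lowest colonoid line, and limma called none of these 4, although all 5 tested genes had an unadjusted p under 0.05. Of the 5, edgeR called 3 lower and DESeq2 4, and with the line as a block limma called 2, Chgb and Pyy (adjusted p = 0.034 and 0.046). Without M1 all 5 were called, and without any other single line none was. All 5 passed the filter through M41 and M40 alone, so these p-values and calls could hardly have gone the other way. Tuft cell genes were scarce, with Pou2f3, the factor that defines tuft cells, at 4 CP20M or less and neither of the 2 tested genes called or at an unadjusted p under 0.05, and of the Paneth and deep crypt secretory genes only Reg4 was tested (1208, 1013 and 3 against 35, 5 and 13, adjusted p = 0.097).

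**Figure D3:**
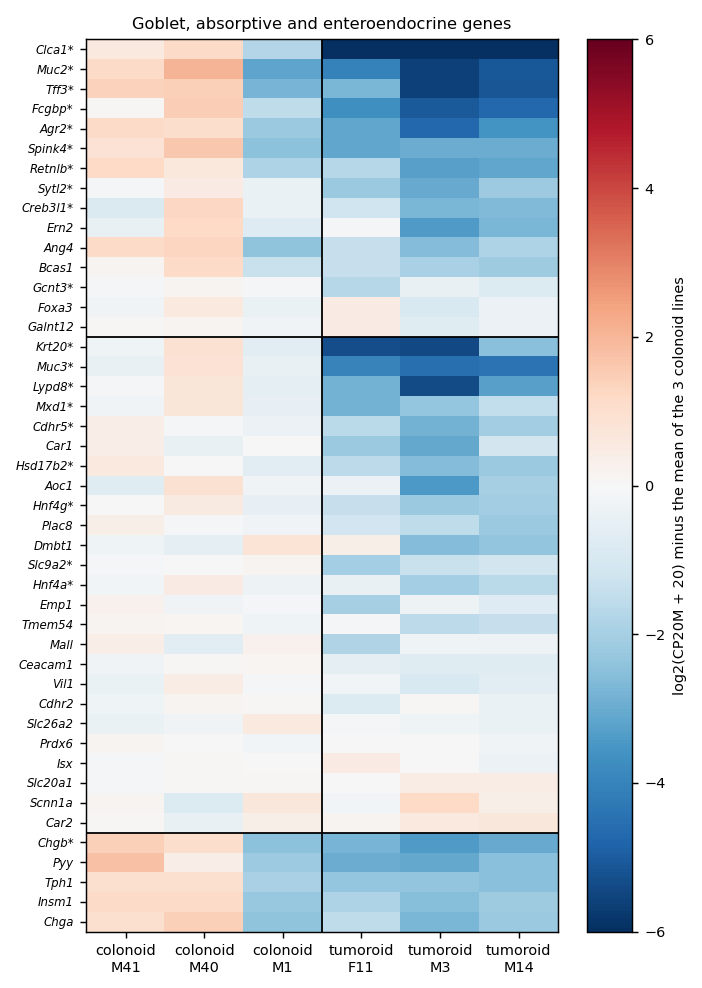
Heat map of tested goblet (top), absorptive (middle) and enteroendocrine (bottom) genes in each line, as log2(CP20M + 20) minus the mean of the 3 colonoid lines, with blue for lower values, red for higher values, colors capped at 6 and an asterisk on called genes. Enteroendocrine genes and goblet genes such as Muc2, Tff3 and Agr2 are low in colonoid M1 as well as in the tumoroids. Sytl2, Krt20, Muc3 and Mxd1 are low in the tumoroids only.

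The MYC target and ribosome biogenesis genes moved in the opposite direction. All 28 were tested, 19 rose and none fell, against 5.61% and 3.68% of all genes tested. The fold changes of all 28 were above 0, with a median of 0.62 against 0.05 over all genes. Their summed level was 71114, 64431 and 86539 CP20M in colonoids and 116063, 116820 and 102678 in tumoroids. Gnl3, which encodes nucleostemin, a nucleolar GTPase, was at 1396, 1256 and 1400 in colonoids and at 2412, 2921 and 2297 in tumoroids (a log2 change of 0.90 ± 0.11 SE, adjusted p = 0.00094). Polr1a, the largest subunit of RNA polymerase I, was at 1078, 1169 and 1877 against 3053, 2427 and 2993 (1.06 ± 0.19, adjusted p = 0.0079), and Polr1b, another subunit of this enzyme, rose by 0.80.

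Cad, the enzyme of the first steps of pyrimidine synthesis, was at 1233, 1414 and 2030 CP20M in colonoids and at 4527, 2755 and 3405 in tumoroids (a log2 change of 1.18 ± 0.23 SE, adjusted p = 0.011). Mybbp1a, a nucleolar MYB-binding protein, was at 5612, 5133 and 8354 against 12051, 11484 and 12159 (0.93 ± 0.16, adjusted p = 0.0059). The small nucleolar ribonucleoprotein genes Nop56, Nop58, Dkc1 and Gar1 rose by 0.75, 0.63, 0.57 and 0.53, and nucleolin, Ncl, rose by 0.59. Npm1, Fbl, Odc1, Srm and Tfrc were among the 9 that were not called. Under TMM scaling 18 rose and all 28 fold changes stayed above 0. With all 18 libraries 5 were called, namely Gnl3, Polr1a, Polr1b, Cad and Mybbp1a. The count was 18 without M1, 16 without M14, 11 without F11 and 7 without M41, and fell to 2 without M3 and 1 without M40.

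**Figure D4:**
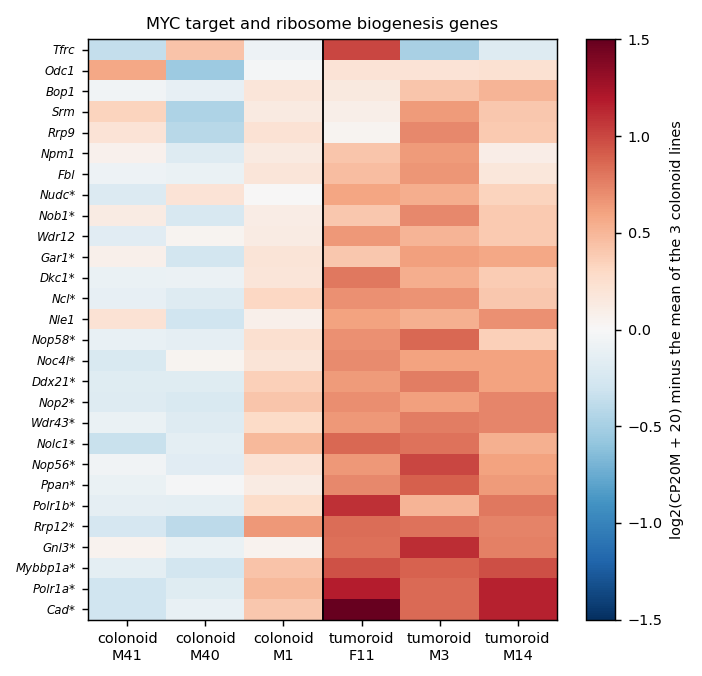
Heat map of the 28 MYC target and ribosome biogenesis genes in each line, as log2(CP20M + 20) minus the mean of the 3 colonoid lines, with red for higher values and an asterisk on called genes (color scale capped at 1.5). In 21 of the 28 genes every tumoroid line is above every colonoid line, as in 1699 of the 10625 genes tested.

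None of 35 cell cycle genes was called, although all were tested with limma, against 9.29% of all genes tested. Their median log2 fold change moved with the tool and the lines, from 0.02 to 0.52 with edgeR, 0.54 with DESeq2, 0.56 without M40 and −0.89 without F11. The edgeR and DESeq2 medians come from models of read counts, so they are not the same measure as the others. Of the 35, 2 had an unadjusted p under 0.05, edgeR called 0 and DESeq2 1, and without F11 limma called 1, lower. Within each genotype 1 line was far above the others. Mki67 was at 592, 4532 and 926 CP20M in colonoids and at 11896, 242 and 567 in tumoroids, so that F11 and M40 were high and the other 4 low. Top2a had the same order, at 480, 3846 and 881 against 11042, 492 and 692. The whole list summed to 47988, 90741 and 47949 CP20M in colonoids and 120510, 44847 and 46296 in tumoroids. The cell cycle inhibitor Cdkn1a was between 4701 and 5942 in all 6 lines.

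Of 12 tested genes that mark position along the gut, 2 were called, against 9.29% of all genes tested. Both, Hoxd13 and Cdx1, were lower. Hoxd13 (chromosome 2, 74668310 to 74671599, plus strand), the homeobox gene at the 5′ end of the HoxD cluster that marks the hindgut, was at 1339, 2479 and 2990 CP20M in colonoids and at 2, 244 and 23 in tumoroids (a log2 change of −5.11 ± 0.87 SE, adjusted p = 0.0059). The groups did not overlap, and the call held with all 18 libraries (adjusted p = 0.011). Its neighbors in the cluster were too low to test. Hoxd9 was at 146, 72 and 195 CP20M in colonoids and at 2, 17 and 4 in tumoroids, Hoxd10 at 13, 19 and 136 against 0, 7 and 2, and Hoxd11 at 61, 41 and 369 against 0, 12 and 2. Hoxd12 reached 151 in M1 and 7 or less in every other line.

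The posterior genes of the other clusters were not called, and only Hoxa9 among them did not overlap (1166, 1271 and 1128 against 1422, 1423 and 1601 CP20M). Hoxa13 was at 1230, 1562 and 1312 CP20M in colonoids and at 1474, 1059 and 1703 in tumoroids, and Hoxb13 at 1163, 1701 and 1518 against 1631, 1161 and 1362. Genes of the small intestine and stomach, such as Fabp6, Apoa4, Gata4, Sox2 and Tff1, were at 4 CP20M or less in every line.

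**Figure D5:**
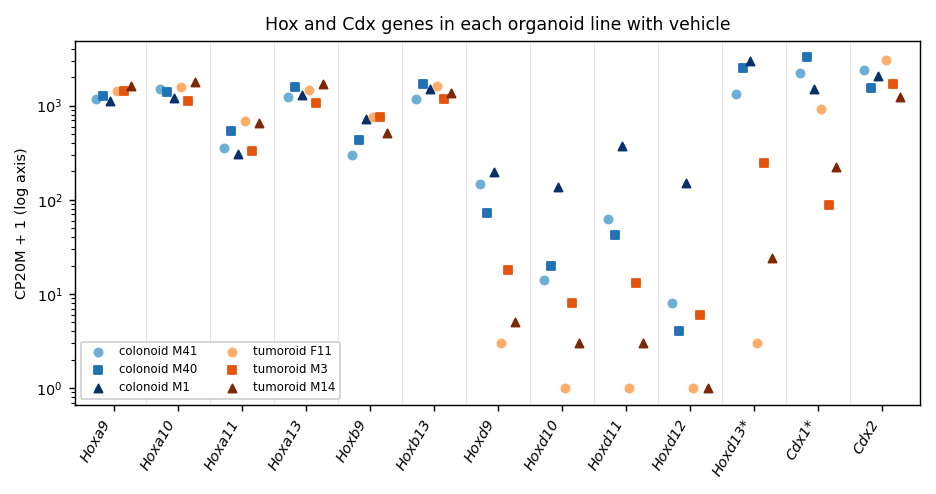
CP20M + 1 (log axis) of Hox and Cdx genes in each colonoid line (blue) and tumoroid line (orange to brown), with an asterisk on called genes. With vehicle, the HoxA and HoxB genes other than Hoxa9 overlap between genotypes, whereas Hoxd13 ranges from 1339 to 2990 CP20M in colonoids and from 2 to 244 in tumoroids.

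Genes of the fetal-like, regenerative program and targets of YAP, a transcriptional co-activator that responds to tension and injury, moved in both directions. Of 20 tested, 3 rose and 1 fell, against 5.61% and 3.68% of all genes tested. Their median log2 fold change was 0.03 with 10 above 0, and 0.41 with 15 above 0 without F11. Ctgf, a matricellular protein, was at 6868, 7905 and 11379 CP20M in colonoids and at 13787, 43047 and 20056 in tumoroids (1.42, adjusted p = 0.028), while Gm15270, on the strand opposite Ctgf, stayed at 0.31 to 0.38 of its level. Amotl2, an angiomotin that restrains YAP, was at 1849, 1899 and 3024 against 2775, 12995 and 6421 (1.47, adjusted p = 0.034). Gja1, the gap junction protein connexin 43, was at 353, 598 and 611 against 2143, 1284 and 1156 (1.50 ± 0.24 SE, adjusted p = 0.0055). Cyr61, another YAP target, was at 802, 893 and 921 against 288, 755 and 1018, and Ly6a, which encodes Sca-1, at 22014, 14840 and 17904 against 13884, 19110 and 17410. Clu, a secreted chaperone, fell by 1.06 on the log2 scale (adjusted p = 0.041). With all 18 libraries the call of Gja1 alone was kept, and without M41, M40 or M3 1 gene of the list was called higher.

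In the remaining signaling lists few genes were called, beside 9.29% of all genes tested. Of 11 tested Notch pathway genes, 1 was called (9.1%), a share near that of all genes. Jag2, a Notch ligand, rose (859, 1369 and 2323 against 2989, 3613 and 2197 CP20M, adjusted p = 0.047, and 0.10 with all 18 libraries). Hes1, the main Notch target, was at 1445, 1292 and 1505 against 1071, 1334 and 1455. With limma, none of 16 BMP and TGF-β genes (1 at an unadjusted p under 0.05, 0 called by edgeR and 0 by DESeq2) and none of 13 Eph receptors and ephrins (4, 0 and 2) passed the test. Of 8 tested genes of epithelial defense and antigen presentation, 1 was called (12.5%), also near the share of all genes. Il18, a cytokine stored by epithelial cells, fell (3770, 2864 and 3000 against 826, 699 and 1291, log2 fold change −1.79, adjusted p = 0.010, and 0.062 with all 18 libraries). None of the 11 general epithelial genes was called with limma, against 1 with edgeR and 6 with DESeq2, and 8 had an unadjusted p under 0.05. All 11 were below 0 with a median of −0.58, and in 6 of them the lines did not overlap, which is the case for 11.0% of all genes in this direction. Epcam was at 13945, 17835 and 14201 CP20M in colonoids and at 11550, 8402 and 10129 in tumoroids, and Krt8 at 69554, 60286 and 46853 against 22620, 32742 and 36059.

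Outside these lists, the highest rise was that of Timp3 (chromosome 10, 86300372 to 86349506, plus strand), an inhibitor of matrix metalloproteinases that is bound to the extracellular matrix. It was at 122, 73 and 757 CP20M in colonoids and at 2430, 33623 and 9702 in tumoroids, so that the tumoroid lines differed widely among themselves (log2 fold change 5.42 ± 1.16 SE, adjusted p = 0.014). Syn3, a synapsin whose gene spans Timp3 on the opposite strand (86055125 to 86498896), rose with it and stayed at 0.35 to 0.42 of its level in 5 lines and 0.75 in M40, so its own level is uncertain. Hspg2, which encodes the basement membrane proteoglycan perlecan, was at 58, 40 and 150 in colonoids and at 1453, 970 and 831 in tumoroids (3.54 ± 0.70, adjusted p = 0.011).

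Sema3f, a secreted semaphorin, was at 70, 87 and 372 CP20M in colonoids and at 959 to 1636 in tumoroids (a log2 change of 2.98 ± 0.45 SE, adjusted p = 0.0038). Stra6, the membrane receptor for retinol-binding protein, was at 1066, 572 and 1454 against 3264, 10338 and 7301 (2.68, adjusted p = 0.022). Nuak1, an AMPK-related kinase, rose by 2.52 on the log2 scale, the carbonic anhydrase Car12 by 2.37, the planar polarity gene Prickle1 by 2.27, the transglutaminase Tgm1 by 2.25 and the actin regulator Enah by 2.01. The cell adhesion gene Chl1 was the least certain of the group (40, 6 and 218 against 283, 1738 and 336, adjusted p = 0.049, and 0.10 with all 18 libraries). The 15 highest rises, chosen for their size, also held Arhgef17, Qk, mt-Nd6 and mt-Nd2, and of the 15 the calls of Chl1, Prickle1, Arhgef17, Enah and mt-Nd2 were lost with all 18 libraries.

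The deepest falls outside the lineage lists involved transport, signaling and metabolism. Kalrn, a guanine nucleotide exchange factor, was at 601, 446 and 540 CP20M in colonoids and at 34, 28 and 54 in tumoroids, with the lowest standard error of the 30 genes chosen for the size of their change (log2 fold change −3.24 ± 0.31 SE, adjusted p = 0.000199). Abcb1a, the drug efflux pump P-glycoprotein, was at 2343, 2917 and 1163 against 290, 43 and 305 (−3.45 ± 0.57, adjusted p = 0.0059). Slc10a2, the apical transporter of bile acids, was at 313, 535 and 429 against 20, 23 and 42 (−3.20, adjusted p = 0.0079). Myo1a, a motor of the brush border, was at 1542, 1832 and 699 against 272, 33 and 93 (−3.41, adjusted p = 0.0069). The galactosyltransferase B4galt4 and the phosphodiesterase Pde3a both fell by 3.78, with Pde3a at 0 in M14. Adh1, an alcohol dehydrogenase that also oxidizes retinol, was at 319, 1095 and 13 against 3, 3 and 4, with M1 again close to the tumoroids (adjusted p = 0.046, and 0.091 with all 18 libraries).

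Transcripts of the mitochondrial genome were higher in tumoroids. Of 37 mitochondrial genes, 19 were tested, 8 rose and none fell, against 5.61% and 3.68% of all genes tested. All 19 fold changes were above 0, with a median of 1.24 against 0.05 over all genes. mt-Nd6 was at 92, 295 and 156 CP20M in colonoids and at 851, 1252 and 993 in tumoroids, but mt-Nd5 overlaps it on the opposite strand. mt-Nd2 was at 249, 1271 and 575 against 2430, 2666 and 2236, and lost its call with the line as a block (adjusted p = 0.052). The share of all reads on mitochondrial genes was 0.604%, 0.836% and 0.629% in colonoids and 1.197%, 1.012% and 1.071% in tumoroids. The part of this share in the result was not tested.

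Reads shared between genes enter the count of rises more than once. Of 22 tested genes of the protocadherin γ cluster, whose transcripts have their last exons in common, 20 were called higher, and Pcdhga1 and Pcdhga2 had a ratio of 0.99 to 1.01 in every line. They are best read as 1 signal, at 441, 394 and 471 CP20M for Pcdhga2 in colonoids and at 785, 788 and 599 in tumoroids.

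The same 6 lines were also sequenced after 6 days with 1 µM 5-FU, a fluoropyrimidine that blocks thymidylate synthesis, and those libraries were not part of the fit. The labels of F11, M3 and M14 with 5-FU disagree, since their titles say colonoid and their descriptions say KO. The descriptions were followed, so these libraries are taken as tumoroids. They repeat the lines and so are no independent animals, and their values are given as a description. Of the 596 genes called higher with vehicle, the 3 tumoroid lines lay above the 3 colonoid lines under 5-FU in 259 (43.5%), which was the case for 8.46% of all genes tested. Of the 391 called lower, they lay below in 207 (52.9%, against 7.08% of all genes). No called gene had its groups separated in the opposite direction. Axin2 was at 1475, 2249 and 2521 CP20M in colonoids with 5-FU and at 4215, 10756 and 6290 in tumoroids, and Hoxd13 at 1454, 1778 and 2419 against 5, 276 and 11. Hoxa9, Hoxa10, Hoxa11 and Hoxa13, not called with vehicle, lay higher in all tumoroid lines under 5-FU, whereas Hoxb9 and Hoxb13 overlapped. Hoxa13 was at 1126, 1086 and 992 against 1966, 1691 and 2189. Of the 7 called Wnt targets, 3 (Axin2, Znrf3 and Rnf43) did not overlap under 5-FU. Muc2 did overlap, with colonoid line M1 among the tumoroids (1072, 1644 and 10 against 29, 14 and 7), and so did 7 of the 10 goblet genes.

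The study named 12 genes for this comparison, of which 6 were called higher and 4 lower here. They were picked from the same libraries and are no independent evidence. Ascl2 and Myc were those without a call.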

How the data were processed

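RNA was sequenced as 2 x 100-base paired-end reads from 43 libraries, of which the organoid table was used here and the fibroblast table was not. Per the submitters' processing notes, Trimmomatic 0.36, STAR 2.5.3a and HTSeq 0.9.1 were used; the methods give GRCm38. The sources name 2 different library kits. The values the authors deposited are a signal: gene counts divided by a factor per library so that each sums to about 20000000 (CP20M), without division by length. Steps between low values gave back whole reads for 99.79% to 100.0% of values per library (exact match, tolerance 0). Where 1 read was worth less than 1 CP20M every value can be reached, so the share is no check there. On simulated reads, 99.71% of genes were exact at 20150000 reads and 92.63% at 22400000. Intervals are not given for single values. Differences rest on the spread within the groups of the fit, where the vehicle and regorafenib libraries of 1 line count as separate. That spread is therefore not one between lines alone.

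Genes with at least 200 CP20M in at least 2 of the 6 vehicle libraries were kept. limma 3.58.1 (R 4.3.3) with an intensity trend was fitted to log2(CP20M + 20) with 1 coefficient for each of 6 groups over the 17 vehicle and regorafenib libraries of at least 1000000 recovered reads (11 residual and 3.34 prior degrees of freedom), and p-values were adjusted by Benjamini-Hochberg over all 10625 genes. edgeR 4.0.16 and DESeq2 1.42.0 were alternatives on the recovered reads. Groups came from the labels, and genotype was compared between mice. Libraries of the same line deviated together (mean correlation 0.49 over 16 pairs, lowest 0.19), so the line was also tried as a block. No pair of replicates agreed within sampling noise (chi-square per gene at least 55.4). On simulated data for this comparison (10625 genes, 200 changed), limma recovered 55% of 2-fold and 100% of 4-fold changes, with 4.3% of calls false (edgeR 4.4%, DESeq2 15.5%). The simulated libraries carried no effect of the line, so these shares do not cover the deviation that libraries of a line have in common.

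Named genes are the 15 highest rises and 15 deepest falls among called genes whose lines did not overlap, with a mean of at least 400 CP20M in the higher group and a gene symbol that is not a predicted or RIKEN name, plus the members of the gene lists and Apc. The members and lists were chosen with earlier results of these data known. Positions are from the GENCODE annotation of GRCm38, and promoters from RefSeq (GRCm38.p6).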

Additional observations from a re-analysis of the deposited data

How the results depend on the processing

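The count of 987 called genes was within 1.5 times under 6 alternatives: 1076 with the 5-FU libraries, 939 and 1013 with a pseudocount of 1 or 100 CP20M, 925 under TMM scaling, 873 with edgeR, and 1008 with the line as a block, where 912 genes were shared. The block allows for the correlation between libraries of a line and pairs nothing across genotypes, since no line has both. Of 89 named called genes the block fit lost 2, mt-Nd2 (adjusted p = 0.052) and Tle3 (0.054). The count moved to 1 with the 6 vehicle libraries alone, 171 with all 18 libraries, 513 without a filter on low values (33983 genes tested), 1600 with DESeq2 and 84 at the stricter threshold. Leaving out 1 line gave 54 to 1172. TMM moved the median change over the tested genes from 0.05 to 0.01 (log2) and the share of higher calls from 60.4% to 49.4%. Of the 89 named called genes, 41 kept their call with all 18 libraries and 0 with the 6 alone, and no fold change among them changed sign. Apc was not called under any setting. The cause of these moves was not tested.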

Other observations

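Groups chosen after their values were seen, and so given without a test, added metabolic genes to the picture. The 20 cytosolic aminoacyl-tRNA synthetases charge tRNAs for translation. Of these, 6 were called higher in tumoroids and none lower, against 5.61% and 3.68% of all genes tested. All 20 fold changes were above 0 (median log2 fold change 0.57). Of 17 tested genes of purine and pyrimidine synthesis, 5 were called higher (median 0.46), and of 17 genes of serine and folate one-carbon metabolism 4 were (median 0.75), against 5.61% of all genes tested. Of 11 tested amino acid transporters, 5 were called higher and 1 lower, against 5.61% and 3.68% of all genes tested. With all 18 libraries these counts were 2, 3, 3 and 2.

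Of 18 tested brush border genes, 6 were called lower, against 3.68% of all genes tested, and none higher (median −0.54, 2 called with all 18 libraries). Of 17 tested subunits of the V-ATPase, which acidifies lysosomes, 3 were called lower, against the same 3.68%, and none higher (median −0.33, 0 with all 18 libraries).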
